A study of Mus musculus with 6 samples.

Results

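The 9 genes Gja1, Gja4, Gja5, Gjc1, Bmx, Dkk2, Mgp, Fbln5 and Unc5b, chosen by name as known markers of arterial endothelium together with the connexins of blood vessels, were followed in RNA from lung endothelial cells of wild-type mice. All 9 had 1 row each among the 24520 genes of the deposited table. The cells were sorted by flow cytometry from mice aged 18 months (3 libraries, labelled Aged) and 8 months (3 libraries, labelled mAdu), and the labels name no treatment beyond age. Values are TPM, which count transcripts per length of transcript and relative to the rest of the library, so levels can be compared between genes. Whether each library of an age is a separate mouse is not stated in the labels, so p-values measure the spread between libraries, part of which may be technical.

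Arteries differ from capillaries and veins in the junctions and the matrix that their endothelium builds. Connexins are membrane proteins that assemble into gap junctions, channels through which ions and small molecules pass from cell to cell. Gja4 (Cx37) and Gja5 (Cx40) encode the main connexins of arterial endothelium, Gja1 (Cx43) is widespread in vessel walls and other tissues, and Gjc1 (Cx45) is best known from smooth muscle and the conduction system of the heart. Bmx encodes a cytoplasmic tyrosine kinase of the Tec family that marks arterial endothelium in the mouse, and Unc5b encodes a netrin receptor of arterial and sprouting endothelium. Dkk2 encodes a secreted modulator of Wnt signalling. Mgp encodes matrix Gla protein, an inhibitor of vascular calcification that binds bone morphogenetic proteins, and Fbln5 encodes fibulin 5, a glycoprotein needed to assemble elastic fibres.

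Between the ages, 0 of the 9 genes passed the threshold of 0.05 on the adjusted p (limma, Benjamini-Hochberg over the 12748 tested genes), against 0.0235% of all tested genes. Gja4 lay higher in every 18-month library than in any 8-month library, by 1.52-fold in the mean, and Mgp and Fbln5 lay lower in every 18-month library than in any 8-month library, at 0.767 and 0.296 of the 8-month mean. The other connexins, Bmx, Dkk2 and Unc5b overlapped between the ages. These 3 genes without overlap compare with 18.7% of all tested genes. By direction, 1 of 9 was higher, against 4.48% of all tested genes, and 2 of 9 were lower, against 14.2%. The same 3 genes had an unadjusted p under 0.05, against 13.4% of all tested genes, 3.45% higher and 9.99% lower. Nothing particular to these genes is read from counts this small.

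The promoters of Gja4, Gja5 and Fbln5 are shown because the levels of these genes went different ways at the age contrast: Gja4 was higher without overlap, its fellow arterial connexin Gja5 overlapped, and Fbln5 was lower without overlap. The series concerns DNA methylation, which in mammals is set at cytosines followed by guanine, and these CG sites are in capitals. RefSeq tables on GRCm38.p6 matched 7 of the 9 genes, and each sequence is the 250 bases before a RefSeq transcript start, on the strand of the gene. No methylation was measured in these libraries.
Gja4 (chr4:127314040-127314289, minus strand): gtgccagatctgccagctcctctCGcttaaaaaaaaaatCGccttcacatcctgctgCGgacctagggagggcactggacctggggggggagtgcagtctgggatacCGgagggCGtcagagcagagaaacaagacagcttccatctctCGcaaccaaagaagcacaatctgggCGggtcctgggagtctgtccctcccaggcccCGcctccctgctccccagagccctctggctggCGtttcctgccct
Gja5 (chr3:97032152-97032401, plus strand): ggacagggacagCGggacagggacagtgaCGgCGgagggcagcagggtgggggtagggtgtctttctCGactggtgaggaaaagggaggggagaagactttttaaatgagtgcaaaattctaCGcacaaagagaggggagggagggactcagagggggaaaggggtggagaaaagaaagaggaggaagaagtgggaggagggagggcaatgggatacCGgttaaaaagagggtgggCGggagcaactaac
Fbln5 (chr12:101819120-101819369, minus strand): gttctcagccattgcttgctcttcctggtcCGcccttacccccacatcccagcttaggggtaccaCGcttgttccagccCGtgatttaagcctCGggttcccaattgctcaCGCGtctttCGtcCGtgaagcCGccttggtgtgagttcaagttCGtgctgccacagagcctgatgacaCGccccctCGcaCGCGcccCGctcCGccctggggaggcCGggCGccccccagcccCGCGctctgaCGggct

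Gja4 had 9 CG sites in this window, more than 59.7% of the 32851 RefSeq promoter windows of mouse genes, and Gja5 had 7, more than 53.7%. Fbln5 had 21 CG sites before this start, more than 83.7%, and 6 before a second RefSeq start, more than 49.6%. Among the other genes the number ran from 4 in Bmx over 6 in Gja1 and 7 in Dkk2 to 27 in Unc5b, more than 91.4% of windows. The GC box GGGCGG, searched on both strands, occurred once each in the windows of Gja4 and Gja5, 2 times each in those of Dkk2, Unc5b and the first Fbln5 start, and in 32.7% of all windows. The letters AACAAT (a SOX site) occurred in no window of these genes and in 9.42% of all windows, and TGGGAA (a site of RBPJ, the Notch effector) occurred in those of Bmx and Fbln5 and in 21.6% of all windows. A match is a description of the letters and not a measured site.

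The libraries carried the transcripts of endothelium at high levels, with Pecam1, an adhesion molecule of all endothelium, at 1306 to 1442 TPM at 18 months and 1286 to 1411 TPM at 8 months. Of 12 pan-endothelial genes, 11 had a negative difference and 0 passed (limma adjusted p of 0.144 or more). At a limma unadjusted p under 0.05 there were 3, all lower, against 9.99% of all tested genes. Summed markers of lung epithelium lay at 9557 to 19354 TPM and 11114 to 20346 TPM at 18 and 8 months (11 genes listed), and summed markers of macrophages and monocytes at 1055 to 1938 TPM and 763 to 1927 TPM (11 genes listed), so RNA of other cells was present at both ages. The epithelial sum was mostly Sftpc and Scgb1a1, at 6399 and 12297 TPM of the 19354 TPM in the first 18-month library. Of the macrophage and monocyte markers 9 were tested, and 9 had a positive difference with a median of 0.66 on the log2 scale. Of these 9, 0 passed (limma adjusted p of 0.176 or more). At a limma unadjusted p under 0.05 there were 2, both higher, against 3.45% of all tested genes. These 2 did not overlap between the ages, the endotoxin coreceptor gene Cd14 at 38.1, 32.4 and 28.8 TPM at 18 months, against 18.5, 17.6 and 24.9 TPM at 8 months, and the chitinase-like gene Chil3 at 141, 391 and 249 TPM, against 26.7, 31.4 and 140 TPM. The summed macrophage and monocyte markers lay at 763 and 859 TPM in the first and second 8-month libraries, but at 1927 TPM in the third. Of the untested markers, Ccr2 had a lower mean at 18 months (0.725 against 1.22 TPM) and Csf1r a higher one (0.249 against 2.14e-06 TPM). The 18-month mean of Csf1r came from the first library, at 0.745 TPM, against 0.00242 and 0 TPM in the others. Markers of aerocyte capillaries summed to 4313 to 4955 TPM at 18 months and 5378 to 7067 TPM at 8 months. Their difference was negative in 11 of 11, with 0 past the threshold (limma adjusted p of 0.128 or more). A limma unadjusted p under 0.05 was found in 8, all lower, against 9.99% of all tested genes. The part of these cells in the levels of the 9 genes was not tested. The depth of the libraries cannot be read from TPM, and no counting error is given. Across all tested genes, 3 passed the adjusted threshold, and the median log2 difference was -0.079, with 66.2% of the genes negative. Log2 differences here and below are on the log2(TPM + 1) scale, 18 minus 8 months, on which changes of weakly expressed genes look smaller than they are.

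In level, Gja4 stood apart from the other 8 genes. Its lowest library had 277 TPM, against 62.0 TPM in the highest library of Mgp, the next gene, and its mean over all libraries lay at percentile 97.9 of the tested genes. Mgp in turn lay above Gjc1 in all 6 libraries with no overlap of the ranges, at 41.3 TPM or more against 32.3 TPM or less. From there on neighbours in the order overlapped: Gjc1 and Gja5 (24.6 and 24.4 TPM over all libraries), Gja1 (12.4), Fbln5 (11.7), Bmx (7.87), Unc5b (3.23) and Dkk2 (1.39 TPM). Gja5 was above Gja1 in every library, although their ranges met at 16.5 and 16.7 TPM. The percentiles of the mean ran from 62.5 for Gjc1 to 4.79 for Dkk2.

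**Figure D1:**
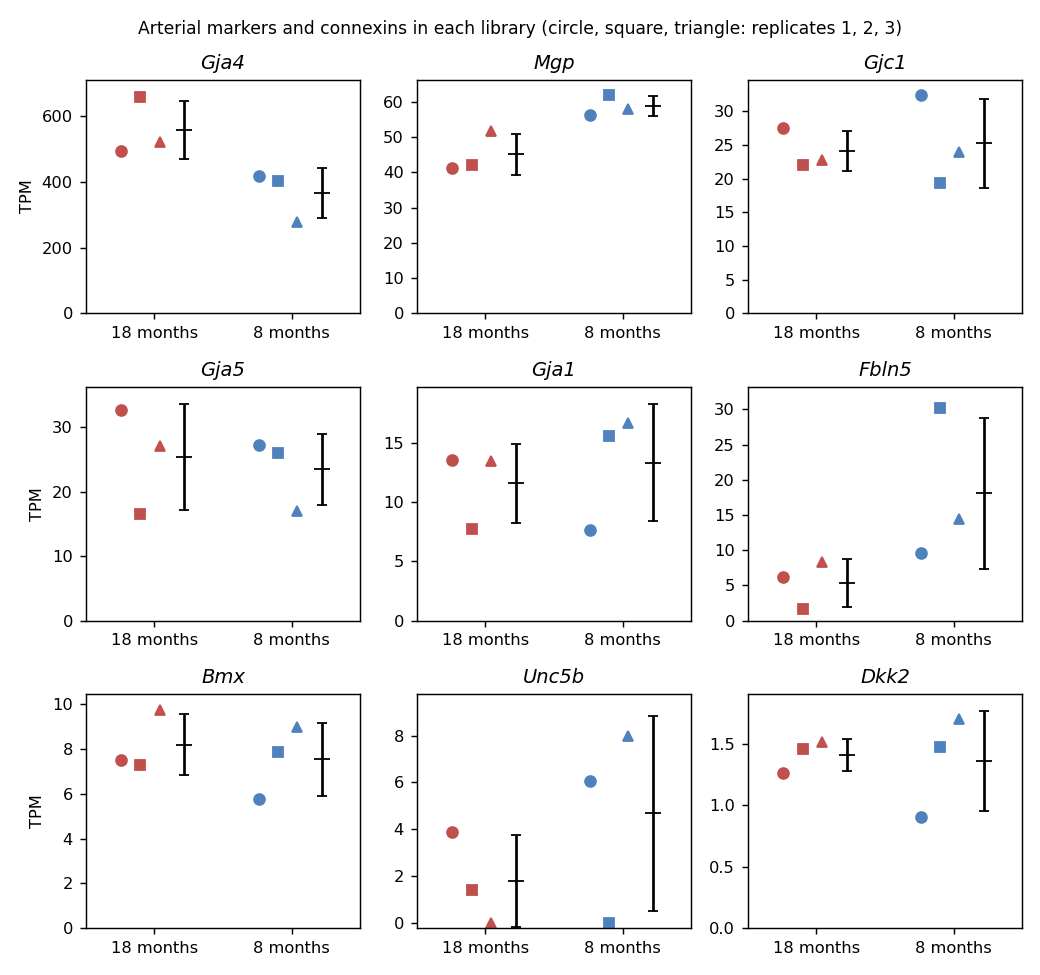
TPM of the 9 genes in each library, with a y axis of its own for each gene; red points are 18-month and blue points 8-month libraries, and bars give the mean and SD (n = 3). Gja4 is higher in all 18-month libraries (496 to 658 TPM, against 277 to 419 TPM), Mgp and Fbln5 are lower, and the points of the other 6 genes overlap.

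Gja4 encodes the most abundant connexin of these cells. It had 496, 658 and 522 TPM in the 18-month libraries, against 419, 403 and 277 TPM in the 8-month libraries. The ages did not overlap, with the second 18-month library highest and the third 8-month library lowest. The means were 558 ± 87.3 TPM at 18 months and 366 ± 77.5 TPM at 8 months (SD, n = 3 each). The log2 difference was 0.62 (SE 0.18, 95% interval from 0.20 to 1.04, limma adjusted p = 0.208). Gja4 has a single annotated transcript on chromosome 4 (127311421 to 127314039, minus strand, GRCm38), and none of its 31-base words occurred in transcripts of another gene. In bulk samples, a different number of cells of a type and a different amount of RNA per cell cannot be told apart.

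Gja5 encodes the partner of Gja4 in arterial gap junctions. It lay at 32.7, 16.5 and 27.0 TPM at 18 months, against 27.2, 26.0 and 17.1 TPM at 8 months. The 8-month values lay inside the range of the 18-month ones, and the lowest value was in the second 18-month library, where Gja4 was highest. The log2 difference was 0.089 with an SE of 0.27 (95% interval from -0.53 to 0.71, limma adjusted p = 0.927). The annotated exons of Gja5 on chromosome 3 (96904693 to 97077416, plus strand) share 165 bases with Gpr89 on the opposite strand, which lay at 35.9 to 41.0 TPM at 18 months and 38.7 to 43.4 TPM at 8 months. The library kit does not mark the strand. Of the 31-base words of Gja5 transcripts, 16.6% (951 of 5737) were found in those of other genes too, and 798 of these in Zfp697. The level of Gja5 is thus less certain than that of Gja4.

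Gja1 lay at 13.5, 7.75 and 13.5 TPM at 18 months, against 7.65, 15.6 and 16.7 TPM at 8 months. The second 18-month and the first 8-month libraries were the low ones, and the ages overlapped. Its log2 difference was -0.16 (95% interval from -0.88 to 0.57, limma adjusted p = 0.880). Gjc1 lay at 27.5, 22.0 and 22.8 TPM at 18 months, against 32.3, 19.4 and 23.9 TPM at 8 months. Its values overlapped too, with both the highest and the lowest library at 8 months, and the log2 difference was -0.040 (95% interval from -0.48 to 0.40, limma adjusted p = 0.957).

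Within the 4 vascular connexins, Gja4 made up 87.1, 93.4 and 89.2% of the summed TPM at 18 months and 86.2, 86.9 and 82.8% at 8 months. This share was higher in every 18-month library, by 4.61 percentage points in the mean and 2.84 without the second 18-month library (all libraries, exact permutation test, 2-sided, p = 0.1, the smallest that 3 against 3 libraries can give, and 0.3 after Benjamini-Hochberg adjustment over 6 connexin measures). The summed level of the 4 connexins was 569, 704 and 585 TPM at 18 months, against 486, 464 and 335 TPM at 8 months (exact permutation p = 0.1, adjusted 0.3), nearly all of it Gja4. The ratio of Gja4 to Gja5 was 15.2, 39.8 and 19.3 at 18 months, against 15.4, 15.5 and 16.3 at 8 months. The 8-month libraries thus held a narrow ratio, while the 18-month libraries spread from below that range to well above it, and the ages overlapped (exact permutation p = 0.4, adjusted 0.4). Without the second 18-month library the ratio differed by 1.50, against 9.03 with all libraries.

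**Figure D2:**
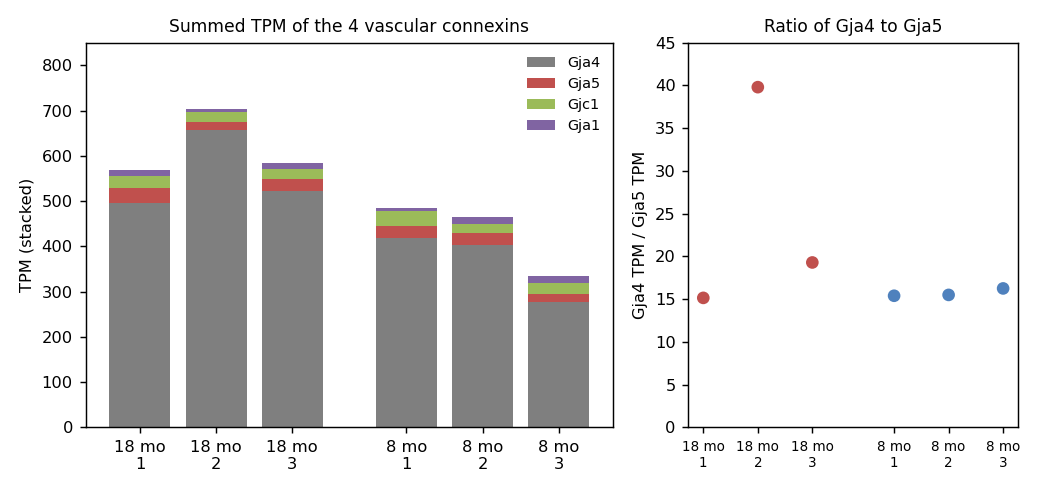
Left, TPM of Gja4, Gja5, Gjc1 and Gja1 stacked for each library (18 mo, 18-month libraries 1 to 3; 8 mo, 8-month libraries 1 to 3); right, the ratio of Gja4 to Gja5 TPM in the same libraries. Gja4 makes up 82.8 to 93.4% of each bar, and the second 18-month library has a ratio of 39.8, against 15.4 to 16.3 at 8 months.

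Of the 19 other connexin and pannexin genes listed, 1 reached the mean of 1 TPM needed for the test. This was Gjc3, a connexin known from myelinating glia, at 2.72, 1.94 and 1.93 TPM at 18 months, against 2.84, 2.62 and 2.03 TPM at 8 months, with overlap (limma adjusted p = 0.824). Gja3, Gjb5, Gjd2, Gjd3 and Panx3 were listed at 0 in all 6 libraries. Gjb1, a connexin of epithelium and liver, lay at 0.613 to 1.02 TPM at 18 months and 0.264 to 1.62 TPM at 8 months, and Panx1, which forms channels in the membrane of single cells, at 0.652 to 0.759 TPM and 0.835 to 1.13 TPM. Both lay below the limit of the test.

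Among 12 genes whose products bind, carry or modify connexins, 11 were tested and 0 passed (limma adjusted p of 0.315 or more, with 2 at an unadjusted p under 0.05, both lower, against 9.99% of all tested genes). Of the 11, 9 had a negative difference, against 66.2% of all tested genes, and their median was -0.15, against -0.079. The cadherin gene Cdh5 lay at 739, 653 and 812 TPM at 18 months, against 875, 874 and 926 TPM at 8 months. Csnk1d, a casein kinase, lay at 64.4, 55.0 and 58.6 TPM, against 69.9, 67.0 and 74.5 TPM. In both genes every 18-month library was below every 8-month library, as in 14.2% of all tested genes. When values were taken relative to pan-endothelial genes, which raised the median of all genes by 0.24 on the log2 scale, the log2 difference was -0.049 in Cdh5, itself a gene of that list, against -0.28 without this scaling, and -0.012 in Csnk1d, against -0.25.

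Bmx, the arterial kinase gene, lay at 7.52, 7.29 and 9.76 TPM at 18 months, against 5.78, 7.86 and 8.98 TPM at 8 months. The ages overlapped, and the log2 difference was 0.11 (95% interval from -0.33 to 0.56, limma adjusted p = 0.851). Of the 4 other Tec family kinases, which act mostly in blood cells, Btk alone was tested, at 1.01 to 1.48 TPM at 18 months and 0.466 to 2.41 TPM at 8 months (limma adjusted p = 0.887). Unc5b was uneven within both ages. It was listed at 3.89, 1.40 and 0.00101 TPM at 18 months, against 6.08, 0.00149 and 7.98 TPM at 8 months, so 1 library of each age held next to none while others held several TPM. The log2 difference was -0.81, and its 95% interval from -2.84 to 1.22 was the widest of the 9 genes (limma adjusted p = 0.755). Of 15 netrins, other UNC5 receptors and their partners, 6 were tested and 0 passed (limma adjusted p of 0.336 or more). At a limma unadjusted p under 0.05 there was 1 gene, which was lower, against 9.99% of all tested genes. This was Flrt3, which encodes a ligand of UNC5 receptors, at 1.59, 1.11 and 1.80 TPM at 18 months, against 2.25, 3.07 and 2.27 TPM at 8 months.

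Dkk2 was close to the limit of the test. It lay at 1.27, 1.46 and 1.51 TPM at 18 months, against 0.908, 1.47 and 1.71 TPM at 8 months, with the 18-month libraries inside the range of the 8-month ones, and the log2 difference was 0.045 (95% interval from -0.43 to 0.52, limma adjusted p = 0.955). Of the 8 other genes of the Dkk family and its receptors, 5 were tested, and 0 passed or had an unadjusted p under 0.05 (limma). The smallest unadjusted p belonged to Kremen1, a receptor for Dkk proteins, at 9.97, 9.06 and 11.6 TPM at 18 months, against 10.3, 13.1 and 14.2 TPM at 8 months. Of the Wnt coreceptors that Dkk proteins bind, Lrp5 ranged over 4.58 to 6.43 TPM at 18 months and 5.46 to 7.88 TPM at 8 months, and Lrp6 over 13.8 to 21.3 TPM and 13.2 to 17.2 TPM.

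Mgp lay at 41.3, 42.2 and 51.9 TPM at 18 months, against 56.4, 62.0 and 58.0 TPM at 8 months. The ages did not overlap, and the 8-month libraries were close together. The means were 45.1 ± 5.86 TPM at 18 months and 58.8 ± 2.90 TPM at 8 months (SD, n = 3 each). The log2 difference was -0.38 (SE 0.12, 95% interval from -0.65 to -0.11, limma adjusted p = 0.218). Relative to pan-endothelial genes the difference of Mgp was -0.15. Of 15 genes of the bone morphogenetic protein pathway and of vitamin K-dependent carboxylation that act with matrix Gla protein, 9 were tested and 0 passed (limma adjusted p of 0.144 or more). An unadjusted p under 0.05 was reached by 1 higher and 2 lower genes, against 3.45% and 9.99% of all tested genes. Without overlap, 1 of the 9 was higher and 3 were lower, against 4.48% and 14.2% of all tested genes. The receptor genes Eng and Acvrl1 were lower without overlap, Eng at 454, 307 and 350 TPM at 18 months against 562, 733 and 615 TPM at 8 months, and Acvrl1 at 1236, 1082 and 1245 TPM against 1447, 1521 and 1474 TPM. The log2 difference of Acvrl1 was -0.32, but -0.085 relative to pan-endothelial genes and -0.11 after GC content and length correction. The receptor gene Bmpr2 was narrowly lower without overlap, at 168.4 to 204.6 TPM at 18 months against 205.1 to 212.8 TPM at 8 months. The ligand gene Bmp6 was higher without overlap, at 120, 125 and 123 TPM against 76.2, 113 and 84.2 TPM.

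Fbln5 showed the lowest ratio of the 9 genes. It lay at 6.14, 1.64 and 8.30 TPM at 18 months, against 9.64, 30.2 and 14.5 TPM at 8 months. The ages did not overlap, but the third 18-month and the first 8-month libraries were close, and the spread came from the low second 18-month and the high second 8-month library. The means were 5.36 ± 3.40 TPM at 18 months and 18.1 ± 10.7 TPM at 8 months (SD, n = 3 each). The log2 difference was -1.62 (SE 0.53, 95% interval from -2.84 to -0.40, limma adjusted p = 0.247). Without the second 18-month library it was -1.08. None of the 31-base words of Fbln5 or Mgp transcripts occurred in transcripts of another gene.

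Most tested genes of the elastic fibre other than Fbln5 had a negative difference, and some a positive one. Of 18 listed, 12 were tested and 0 passed (limma adjusted p of 0.128 or more). An unadjusted p under 0.05 was reached by 1 higher and 2 lower genes, against 3.45% and 9.99% of all tested genes. Of the 12, 9 had a negative difference, against 66.2% of all tested genes, and their median was -0.25, against -0.079. Eln, the gene of elastin itself, lay at 18.2, 14.0 and 14.3 TPM at 18 months, against 19.7, 23.1 and 21.6 TPM at 8 months. Emilin1, a glycoprotein of the fibre surface, lay at 19.0, 11.2 and 13.0 TPM, against 20.7, 29.5 and 25.2 TPM. Ltbp1, which stores latent TGF-beta in the matrix, lay the other way, at 17.4, 17.5 and 16.2 TPM, against 10.5, 11.6 and 10.0 TPM. In none of these 3 genes did the ages overlap. Of the 12 tested genes, 1 was higher and 4 were lower without overlap, against 4.48% and 14.2% of all tested genes. The other lower ones were Mfap2 (654 to 764 TPM at 18 months, 767 to 1101 TPM at 8 months) and Ltbp3 (2.40 to 2.77 TPM and 3.07 to 4.33 TPM). The log2 difference of Eln was -0.45, but -0.22 relative to pan-endothelial genes and -0.21 after GC content and length correction.

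Mgp and Fbln5 are also made by fibroblasts and smooth muscle, whose summed markers were low in these cells. The 14 fibroblast markers summed to 37.6, 37.2 and 27.6 TPM at 18 months, against 53.6, 66.0 and 46.3 TPM at 8 months, and the ages did not overlap. Of these, 11 were tested, and 11 had a negative difference with a median of -0.51 on the log2 scale. Of the 11, 0 passed (limma adjusted p of 0.155 or more). At a limma unadjusted p under 0.05 there were 4, all lower, against 9.99% of all tested genes. The 14 smooth muscle and pericyte markers summed to 93.1, 83.1 and 91.1 TPM at 18 months, against 95.3, 128 and 116 TPM at 8 months, again without overlap. Of these, 8 were tested, 8 had a negative difference with a median of -0.59, and 0 passed (limma adjusted p of 0.190 or more). A limma unadjusted p under 0.05 was found in 4, all lower, against 9.99% of all tested genes. Most of each smooth muscle and pericyte sum was Mylk, which overlapped between the ages, at 59.5, 52.9 and 61.2 TPM at 18 months, against 49.0, 70.2 and 72.1 TPM at 8 months. Actg2, Lmod1 and Pi16, listed here but too low to be tested, had a higher mean at 18 months (0.715, 0.238 and 0.930 TPM) than at 8 months (0.632, 0.172 and 0.883 TPM). None of the 28 genes was at 0 in all libraries. Among the markers with the smallest unadjusted p, the collagen gene Col1a1 lay at 0.247 to 0.665 TPM and 1.54 to 2.26 TPM at 18 and 8 months, the proteoglycan gene Dcn at 3.87 to 4.34 TPM and 7.17 to 18.5 TPM, and Myh11, the myosin of smooth muscle, at 1.63 to 2.45 TPM and 3.78 to 4.32 TPM. Lower without overlap were 3 of the 11 tested fibroblast and 4 of the 8 tested smooth muscle and pericyte markers, against 14.2% of all tested genes. Acta2 (4.44 to 5.26 TPM and 4.76 to 7.29 TPM) and Col3a1 (0.495 to 1.47 TPM and 1.43 to 2.45 TPM) were among those that overlapped. Fbln5, Mgp, Dcn and the summed fibroblast, smooth muscle and pericyte, and venous markers were all highest in the second 8-month library. The summed lymphatic markers were highest in the first 8-month library. Venous markers summed to 639, 513 and 642 TPM at 18 months, against 651, 1311 and 1070 TPM at 8 months. Their difference was negative in 12 of 12, with 0 past the threshold (limma adjusted p of 0.122 or more). A limma unadjusted p under 0.05 was found in 5, all lower, against 9.99% of all tested genes. Lymphatic markers, nearly all of it Lyve1, summed to 759, 602 and 663 TPM, against 1153, 917 and 1043 TPM, while Prox1, the defining transcription factor of lymphatic endothelium, lay at 0 to 0.179 TPM. The part of these cells in the values of Mgp and Fbln5 was not tested.

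**Figure D3:**
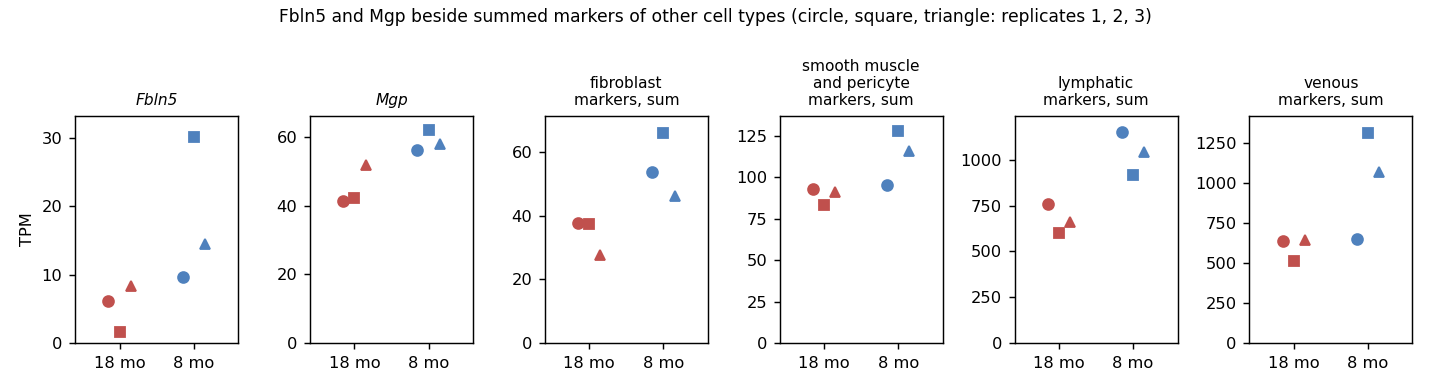
TPM of Fbln5 and Mgp (left) beside the summed TPM of the marker lists of fibroblasts, smooth muscle and pericytes, lymphatic and venous endothelium; red points are 18-month and blue points 8-month libraries. The fibroblast sum lies at 27.6 to 37.6 TPM at 18 months and 46.3 to 66.0 TPM at 8 months. The second 8-month library is the highest in every panel but the lymphatic one, where the first 8-month library is.

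The wider set of arterial endothelial markers did not move one way. Of 27 other arterial genes listed, 24 were tested, and 0 passed (limma adjusted p of 0.181 or more). Of these, 11 had a positive and 13 a negative difference, with a median of -0.038, against -0.079 over all tested genes. An unadjusted p under 0.05 was reached by 4 genes on the higher and 4 on the lower side, against 3.45% and 9.99% of all tested genes. The ages did not overlap in 3 higher and 4 lower genes, against 4.48% and 14.2% of all tested genes. Among the higher ones, Tspan2, a tetraspanin gene, lay at 74.7, 69.1 and 82.7 TPM at 18 months, against 47.4, 66.1 and 49.3 TPM at 8 months. Gkn3, a marker of arterial endothelium in the brain, lay at 2.90, 2.11 and 1.54 TPM, against 0.200, 1.15 and 1.42 TPM. Slc6a6, the taurine transporter, lay at 83.3, 83.2 and 130 TPM, against 57.7, 71.4 and 78.7 TPM, and its log2 difference of 0.49 was 0.27 without the third 18-month library. Hey1, a Notch target that sets arterial identity, overlapped between the ages by 1 library, at 123, 125 and 141 TPM at 18 months, against 95.4, 125 and 96.7 TPM at 8 months.

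Among the lower ones, Vegfc, a growth factor of lymphatic vessels that is also in the venous list, lay at 28.0, 19.3 and 19.8 TPM at 18 months, against 30.7, 42.2 and 41.5 TPM at 8 months. Clu, which encodes the secreted chaperone clusterin, lay at 940, 1116 and 1029 TPM, against 1419, 1216 and 1422 TPM. Nrp1, a coreceptor of VEGF and semaphorins, lay at 654, 558 and 673 TPM, against 738, 761 and 847 TPM, and Eln has been given above. Relative to pan-endothelial genes the log2 difference was -0.16 in Clu, against -0.39 without this scaling, and -0.082 in Nrp1, against -0.32. The Notch ligand Dll4 (149 to 181 TPM at 18 months and 132 to 212 TPM at 8 months), the ephrin gene Efnb2 (116 to 135 TPM and 113 to 136 TPM) and the transcription factor Sox17 (15.5 to 19.7 TPM and 12.4 to 18.1 TPM) overlapped.

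**Figure D4:**
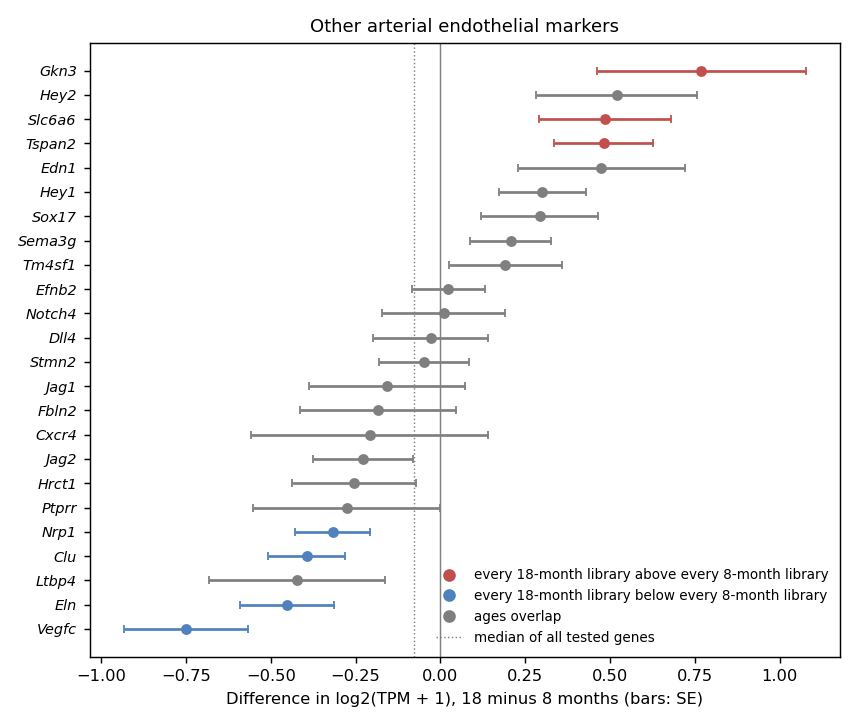
Difference in log2(TPM + 1), 18 minus 8 months, of the 24 tested other arterial markers, with bars of 1 SE; red and blue mark genes whose 18-month libraries all lie above or all lie below the 8-month libraries. The genes spread on both sides of 0, from 0.77 for Gkn3 (0.46 without the first 8-month library and 1.42 with a pseudocount of 0.1) to -0.75 for Vegfc, around the median of all tested genes at -0.079.

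Of 12 genes that sense, relay or respond to laminar flow, which is high in arteries, 0 passed (limma adjusted p of 0.208 or more, with 2 at an unadjusted p under 0.05, both lower, against 9.99% of all tested genes). A negative difference was found in 10 of the 12, against 66.2% of all tested genes, with a median of -0.17. Nos3, the endothelial nitric oxide synthase gene, lay at 19.1, 11.3 and 11.9 TPM at 18 months, against 21.3, 25.9 and 21.5 TPM at 8 months. Klf2, a transcription factor induced by flow, lay at 198, 151 and 163 TPM, against 236, 211 and 188 TPM, with overlap, and its log2 difference of -0.31 was -0.022 after GC content and length correction and -0.078 relative to pan-endothelial genes. Hmox1, the heme oxygenase gene, was higher without overlap, at 26.7, 30.1 and 24.4 TPM, against 21.3, 22.1 and 24.1 TPM (limma adjusted p = 0.415). General capillary markers, by contrast, had a positive difference in 8 of 10 genes, with a median of 0.12 and 0 past the threshold (limma adjusted p of 0.194 or more). A limma unadjusted p under 0.05 was found in 2, both higher, against 3.45% of all tested genes. These markers summed to 4656 to 4879 TPM at 18 months and 3866 to 4726 TPM at 8 months. Their part in the level of Gja4 was not tested.

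The genes whose levels followed Gja4 most closely over the 6 libraries were Upp1, Cdk5rap1 and Sparc, with root mean square differences of 0.093, 0.11 and 0.14 between centred log2(TPM + 1) values. Rbbp5, Camta1 and Rbm12b2 were closest to Gja5, at 0.095, 0.11 and 0.13, and Tut4, Cipc and Ppp6r2 to Bmx, at 0.037, 0.043 and 0.057. These were the closest of 9087 candidate genes, and with 6 libraries many genes can lie this close. Among the 9 genes themselves, Bmx and Dkk2 were closest to each other, at 0.11. Dkk2 lay at 0.908 to 1.71 TPM, where this scale shrinks changes, and genes of small spread lie close by this measure. Gja4 lay 0.48 from Gja5, 0.71 from Gja1 and 1.39 from Fbln5. Sparc, which encodes a matrix glycoprotein, lay at 453, 480 and 487 TPM at 18 months, against 394, 390 and 262 TPM at 8 months, so the third 8-month library was low in it as in Gja4.

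**Figure D5:**
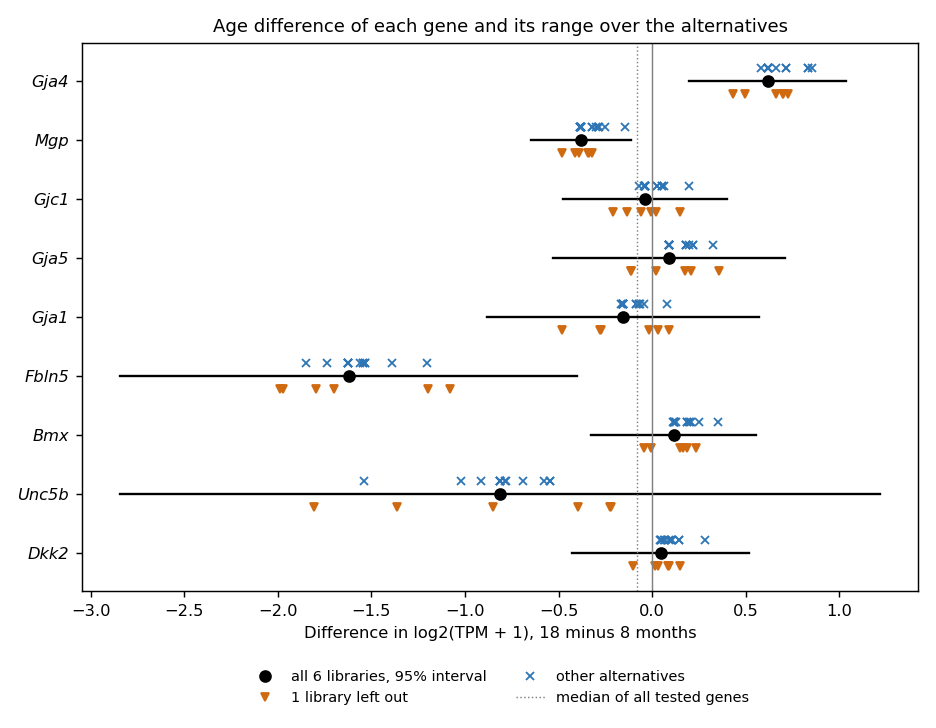
Difference in log2(TPM + 1), 18 minus 8 months, of the 9 genes, ordered by their mean level; black points and lines give the limma estimate and its 95% interval, triangles the fits with 1 library left out and crosses the other alternatives. The intervals of Gja4 (0.20 to 1.04), Mgp (-0.65 to -0.11) and Fbln5 (-2.84 to -0.40) lie on one side of 0 before adjustment for the number of genes tested, and the estimates of the connexins Gja1, Gja5 and Gjc1 lie on both sides of 0 over the alternatives.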

How the data were processed

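RNA of sorted lung endothelial cells was isolated with a kit for very small samples, and 10 ng went into each SMARTer Ultra Low library, read as 100 bp pairs on the HiSeq platform, per the labels' protocols. The deposited values are TPM per Ensembl gene, made by the authors with kallisto on mm10, per the submitters' processing notes. The sources used here give no version, transcript set or strand setting. Symbols came from GENCODE M21 (GRCm38) for 24298 of 24520 identifiers.

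Values were tested as log2(TPM + 1) in 12748 genes averaging 1 TPM or more, with limma 3.58.1 in R 4.3.3 (2-sided moderated test, intensity trend, no term but age, Benjamini-Hochberg over all tested genes, threshold 0.05). All 9 genes passed this filter. The test was checked on simulated data.

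The members and lists were chosen with earlier results of these data known. All 9 were named, with up to 4 genes of each other list by unadjusted p, every other connexin averaging 1 TPM or more, and the 3 genes most like Gja4, Gja5 and Bmx among those with a symbol, no predicted name and a mean of at least 5 TPM. Named after their values were seen were Gkn3, Slc6a6, Hey1, Nrp1, Hmox1, Dll4, Efnb2, Sox17, Gjb1, Panx1, Pecam1, Prox1, Gpr89, Actg2, Lmod1 and Pi16, and the connexins listed at 0. Mfap2, Bmpr2, Ccr2, Csf1r, Acta2, Col3a1, Mylk and Sftpc were named in this way too, and were not followed over the alternatives below. Alternatives were pseudocounts of 0.1 and 0.5, other filters and scalings, no trend, library weights, the replicate block, a GC content and length correction (loess, span 0.75) and each library left out, and one scaling was added after seeing the data.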

Additional observations from a re-analysis of the deposited data

How the results depend on the processing

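None of the 9 genes passed under any of the 20 alternatives (7 were tested with a mean of at least 5 TPM), where 2 or 3 had an unadjusted p under 0.05 (limma). These were not always the same genes. Mgp had a limma unadjusted p of 0.258 relative to pan-endothelial genes and 0.052 with library weights. Without the second 8-month library Fbln5 had a limma unadjusted p of 0.053 and Unc5b of 0.020. Gja4 stayed higher (log2 difference 0.43 to 0.85, adjusted p 0.104 to 0.510), and Mgp (-0.48 to -0.15), Fbln5 (-1.99 to -1.08) and Unc5b (-1.81 to -0.22) stayed lower in all that were run. The extremes of Unc5b were the fits without the second 8-month and without the third 18-month library. The number of genes past the threshold was 3 (1 higher, 2 lower), against 0 without a filter (2203 by unadjusted p under 0.05), 16 with median-of-ratios scaling (8 higher, 8 lower), 16 with quantile normalization (9 higher, 7 lower), 16 relative to the pan-endothelial genes (14 higher, 2 lower), 94 with library weights, 6 with the GC content and length correction and 0 with that correction and the replicate block. Median-of-ratios size factors were first taken over all genes above 0 in every library. Taking them over tested genes alone, an alternative chosen after seeing the data, gave 3 genes (2 higher, 1 lower), so the count rests on that choice. The number was 0 to 2 with 1 library left out, where a fit rests on 2 libraries of an age. Relative to the pan-endothelial genes the log2 difference changed sign in Gja1 (0.080), Gjc1 (0.195), Gjc3 (0.10), Dll4 (0.21) and Gpr89 (0.18). With the GC content and length correction, with or without the block, it did so in Gjc1 (0.027) and Dll4 (0.13), with median-of-ratios scaling in Gjc1 (0.053), Dll4 (0.069) and Gpr89 (0.037), with size factors from tested genes in Gjc1 (0.050), Dll4 (0.066) and Gpr89 (0.033), and with quantile normalization in Gjc1 (0.066), Dll4 (0.00051) and Gpr89 (0.023). With a library left out, differences spanned 0 in Gja1 (-0.48 to 0.088), Gja5 (-0.11 to 0.36), Gjc1 (-0.21 to 0.15), Bmx (-0.043 to 0.24), Dkk2 (-0.10 to 0.15), Btk (-0.043 to 0.22), Dll4 (-0.19 to 0.14), Efnb2 (-0.047 to 0.088) and Pecam1 (-0.043 to 0.035). The library weights were 3.78 for the third 18-month library and 0.56 to 0.957 for the others, so the weighted fit leans on 1 library. Eng passed with library weights alone (log2 difference -0.84, limma adjusted p = 0.044). The cause of these changes was not tested. Same-numbered libraries did not deviate together (correlations of -0.012, -0.090 and 0.057), and not every library correlated best with its own number. With the replicate block 0 genes passed (1445 at an unadjusted p under 0.05). In this balanced design the block cannot alter a difference, only its error. The depth is unknown, so no counting error can be given for low values.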
